A study of Mus musculus with 11 samples.

Results

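The transcripts described are those of 10 antioxidant and metal-binding genes in the mouse heart, picked by symbol. They are 5 classical targets of the transcription factor NRF2 (Hmox1, Nqo1, Gclc, Gclm and Txnrd1), 3 glutathione peroxidases (Gpx1, Gpx3 and Gpx4) and 2 metallothioneins (Mt1 and Mt2). All 10 were found among the 55414 gene identifiers of each library through a mouse gene name table, with the version of the identifier dropped, and all 10 were among the 14556 genes with enough counts to be tested. Bulk RNA-seq covered 11 libraries of C57BL/6 heart apex: 4 unirradiated (NR), 4 given standard proton radiotherapy (S-PRT) and 3 given proton radiotherapy at the ultra-high dose rate known as FLASH (F-PRT). In both irradiated groups the apex alone was targeted with 40 Gy, and tissue was taken 2 weeks later. No label names an allele, a transgene or a drug in any group, and none says whether the libraries of a group came from separate mice. The p-values therefore set differences against library-to-library spread, part of which may be technical.

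NRF2 is held in the cytoplasm and degraded through KEAP1. When oxidants or electrophiles modify KEAP1, NRF2 accumulates, pairs with a small MAF protein and binds antioxidant response elements in front of its targets, while BACH1 competes for the same sites. The glutathione peroxidases are selenium enzymes (in these 3 members) that use glutathione to reduce hydrogen peroxide and lipid peroxides, and the metallothioneins are small cysteine-rich proteins that bind zinc and copper and are switched on through metal response elements by MTF1. In heart tissue these proteins are known for limiting oxidant injury.

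Promoter windows were at hand from RefSeq (GRCm38.p6) for 8 of the 10 genes. Hmox1 and Gclc had no entry. The 250 bases before the transcription start were searched on both strands for the metal response element core (TGCACNC or TGCGCNC) and for the antioxidant response element core (TGACNNNGC). The windows of Mt2, Mt1 and Gpx1 are shown because the levels of these genes followed each other most closely, and that of Gclm because it held both kinds of core while its transcript was not called in any comparison. They lie at chr8:94172368-94172617 (Mt2), chr8:94178839-94179088 (Mt1), chr9:108338830-108339079 (Gpx1) and chr3:122245307-122245556 (Gclm), all on the plus strand, and the starts of Mt2 and Mt1 are 6471 bases apart. Capitals mark matches on either strand, and in Gclm the first run is a metal and an antioxidant core that overlap.
Mt2: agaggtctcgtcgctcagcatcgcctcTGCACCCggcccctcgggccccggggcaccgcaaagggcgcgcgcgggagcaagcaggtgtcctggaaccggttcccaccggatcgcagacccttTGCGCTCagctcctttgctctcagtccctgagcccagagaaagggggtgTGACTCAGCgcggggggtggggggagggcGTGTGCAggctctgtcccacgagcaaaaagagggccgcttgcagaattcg
Mt1: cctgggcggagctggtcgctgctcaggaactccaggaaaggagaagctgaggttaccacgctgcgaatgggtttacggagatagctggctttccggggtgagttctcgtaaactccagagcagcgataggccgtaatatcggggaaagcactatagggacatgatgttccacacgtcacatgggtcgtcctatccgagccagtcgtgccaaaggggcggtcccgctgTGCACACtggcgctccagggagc
Gpx1: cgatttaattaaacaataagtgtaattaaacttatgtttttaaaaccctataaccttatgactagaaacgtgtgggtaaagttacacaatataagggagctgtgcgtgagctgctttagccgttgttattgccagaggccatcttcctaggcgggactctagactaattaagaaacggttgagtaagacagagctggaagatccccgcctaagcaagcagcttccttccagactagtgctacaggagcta
Gclm: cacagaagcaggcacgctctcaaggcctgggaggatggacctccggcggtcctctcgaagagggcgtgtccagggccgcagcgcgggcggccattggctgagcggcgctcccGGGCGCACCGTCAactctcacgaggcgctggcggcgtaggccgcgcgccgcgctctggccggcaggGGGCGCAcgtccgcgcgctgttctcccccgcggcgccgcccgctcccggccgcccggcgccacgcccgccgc
Within these 250 bases, Mt2 had 3 metal response element cores and 1 antioxidant response element core, and Mt1 had 1 metal response element core. Gclm had 2 and 1 there, and Gpx1 had none of either. Of the windows not shown, one of Txnrd1 held 1 antioxidant core, and those of Nqo1, Gpx3 and Gpx4 held none of either. Among 32851 windows of the same length, 21.4% held a metal response element core and 10.2% held the antioxidant core. A match here is only a description of the letters. The counts depend on where the transcription start is annotated. Bases outside the window were not searched, so the counts are not those of a whole promoter.

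Expected counts per library summed to between 20758170 and 40136578. The 7 cardiomyocyte markers were abundant in every library (41539 to 51644 CPM in sum, CPM being counts scaled by TMM and by sequencing depth), while the 3 adipocyte markers never exceeded 0.190 CPM in sum and were all at 0 in some libraries of each group. Mitochondrial genes took 24.2% to 43.8% of the counts. Libraries also differed in how CPM depended on transcript length: Spearman's rho across genes between a gene's deviation from its mean and its effective length was 0.338 to 0.418 (NR), -0.257 to 0.267 (S-PRT) and -0.556 to -0.162 (F-PRT), so short transcripts were relatively lower in NR and higher in F-PRT. F-PRT replicate 3 had the fewest counts and, within F-PRT, the highest mitochondrial share (42.3%).

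By counts scaled with TMM, a subset of the 10 genes was higher in irradiated hearts. After F-PRT, Hmox1, Gpx1, Gpx4, Mt1 and Mt2 rose by 1.45-fold to 2.06-fold over NR, and after S-PRT Gpx1 rose 1.57-fold. Nqo1, Gclc, Gclm and Txnrd1, the other 4 NRF2 targets, were not called in any comparison, and neither was Gpx3. These calls depended on the processing, and 3 settings called 0 of the 10 genes in either comparison with NR. These were removal of each library's trend on transcript length (0.302% of all tested genes were called in S-PRT and 3.5% in F-PRT), scaling by library size only (0.0962% and 0.921%), and log2(TPM + 1) (0.0137% and 0.488%). Few of all tested genes were called there, so 0 of 10 is near those shares. Without the length trend the F-PRT log2 fold changes of Gpx4 and Mt1 went from 0.54 and 0.66 to 0.16 and 0.16. A gene is called where edgeR's quasi-likelihood test gave a Benjamini-Hochberg adjusted p under 0.05 over all 14556 genes. By that rule 1 of the 10 genes was called in S-PRT versus NR, against 1.29% of all tested genes (0.872% higher, 0.419% lower). In F-PRT versus NR 5 of 10 were called, against 19.5% of all (10.8% higher, 8.67% lower). In F-PRT versus S-PRT 0 of 10 were called, against 0% of all. At an unadjusted p under 0.05 these counts were 4, 5 and 2. The largest of these p in each comparison ranked 1411 (Mt2), 2168 (Mt2) and 2056 (Gclm) among the 14556 genes. At least that many of all tested genes therefore fell under the same cut. Their exact share was not counted, here or for the unadjusted counts given later, so those counts have no background beside them. DESeq2 called 3 (4.79% of all), 5 (23.5%) and 0 (1.15%), the 3 being Gpx1, Hmox1 (adjusted p = 0.00285) and Mt1 (adjusted p = 0.0215). Over the 10 genes the log2 fold changes had medians of 0.23, 0.38 and 0.07 in these 3 comparisons, beside 0.01, 0.03 and 0.0020 over all tested genes. The first 2 comparisons share the NR libraries, so their values are set side by side and are not independent.

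**Figure D1:**
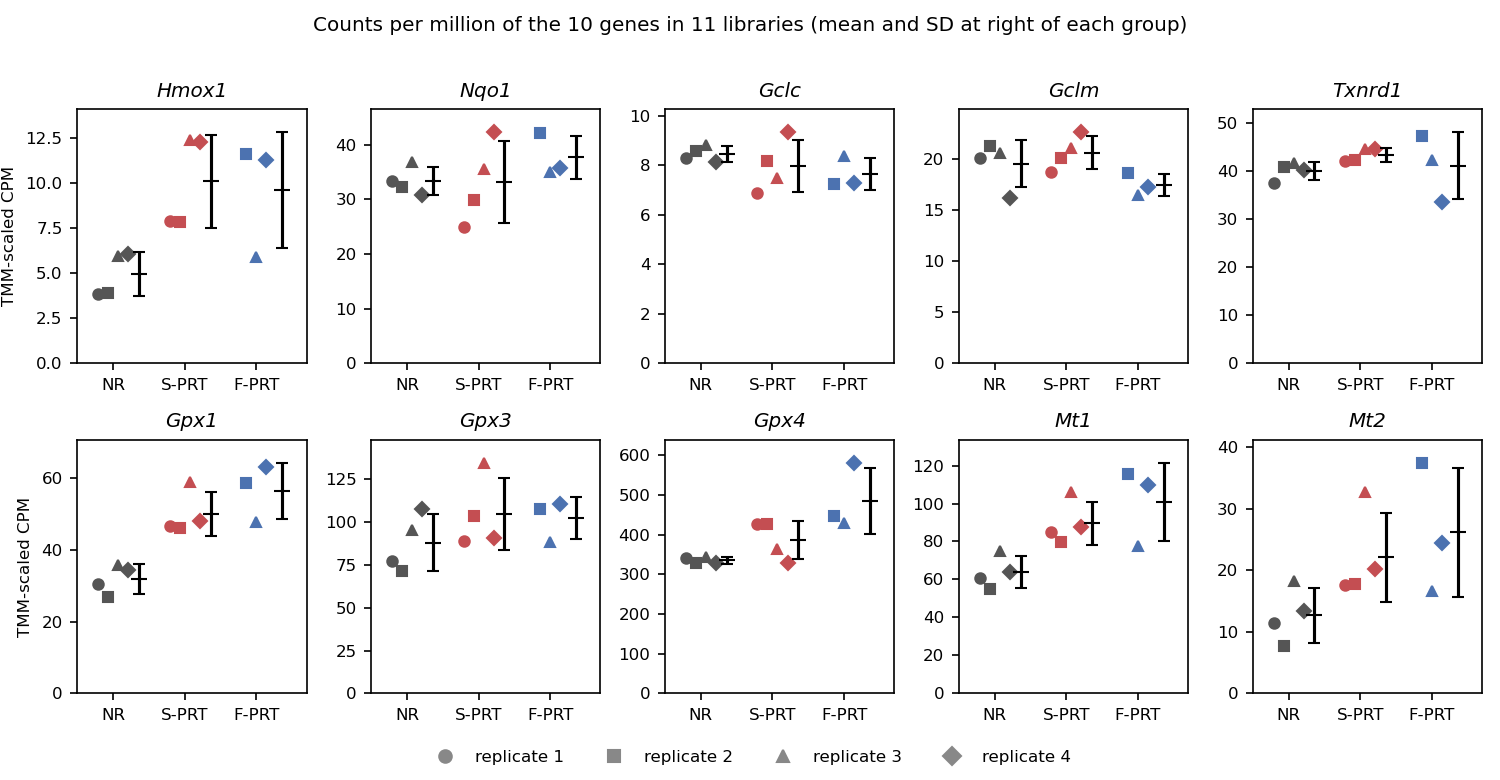
TMM-scaled CPM of each of the 10 genes in every library (points), by group (NR, n = 4; S-PRT, n = 4; F-PRT, n = 3), with the group mean and SD; each panel has its own linear axis starting at 0. Gpx1 and Mt1 show all irradiated libraries above all NR libraries, whereas Gclc and Nqo1 show overlapping groups.

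Levels can be ranked between genes only per transcript length, as TPM. In NR, Gpx4 was the most abundant of the 10 at 482 ± 83.9 TPM (SD, n = 4), followed by Mt1 at 189 ± 49.8 TPM. Gpx3 (62.6 ± 22.7 TPM), Gpx1 (49.6 ± 14.3 TPM), Mt2 (43.6 ± 19.7 TPM) and Nqo1 (23.8 ± 4.23 TPM) came next, and each overlapped its neighbour in that order. Txnrd1 (13.99 ± 2.74 TPM) and Gclm (9.998 ± 1.54 TPM) overlapped each other, as did Hmox1 (3.61 ± 1.47 TPM) and Gclc (2.51 ± 0.436 TPM), the lowest pair. Gpx4, Mt1 and, as the lowest by mean, Gclc held these places in S-PRT and F-PRT as well. Among relatives of these genes, Gpx8 (mean 14.4 TPM over the 11 libraries), Gpx7 (3.07 TPM) and Mt3 (1.62 TPM) were present, Gpx2, Gpx6 and Mt4 were listed at 0 in all 11 libraries, and Gpx5 was listed at 0 in 10.

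Hmox1 encodes heme oxygenase, which breaks heme down to biliverdin, iron and carbon monoxide. It had 3.86, 3.92, 5.96 and 6.08 CPM in NR replicates 1 to 4. It had 7.88, 7.86, 12.4 and 12.3 CPM in S-PRT replicates 1 to 4. The F-PRT values, replicates 2 to 4, were 11.6, 5.89 and 11.3 CPM. All S-PRT libraries lay above all NR libraries, while F-PRT replicate 3 lay inside the NR range. In both NR and S-PRT, replicates 3 and 4 were higher than replicates 1 and 2. The log2 fold change was 0.96 ± 0.26 (SE) in F-PRT versus NR, with an adjusted p of 0.0263. That call was lost without NR replicate 1, NR replicate 2, F-PRT replicate 2 or F-PRT replicate 4, with an adjusted p of up to 0.097 when a library was left out. In S-PRT versus NR the log2 fold change was as large, 1.03 ± 0.24, with an adjusted p of 0.0614 that did not pass. It passed without F-PRT replicate 3 (adjusted p = 0.0269) or F-PRT replicate 4 (adjusted p = 0.0468), which enter the shared estimate of the spread.

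Macrophages of injured tissue are rich in Hmox1, and their markers moved across the same libraries, as did markers of some other cell types. None of the 12 macrophage and monocyte markers was at 0 in any library, and they summed to 119 to 190 CPM (NR), 175 to 357 CPM (S-PRT) and 152 to 277 CPM (F-PRT). The sum was lowest in F-PRT replicate 3 among the irradiated libraries and highest in S-PRT replicate 3. Of the 12 markers, 2 rose and 1 fell in S-PRT versus NR, and 4 rose and 1 fell in F-PRT versus NR. Of all tested genes, 1.29% were called in S-PRT versus NR (0.872% higher, 0.419% lower) and 19.5% in F-PRT versus NR (10.8% higher, 8.67% lower). These shares apply to each marker list here. Ccr2 and Lgals3 rose in both, C1qa and C1qb rose after F-PRT, and Cd163 fell in both; these 5 are named after their values were seen. Markers of other cell types also differed from NR, the genes again named after their values were seen. Of 6 endothelial markers, Tek (-0.97) and Flt1 (-0.93) fell in S-PRT, and Tek (-1.19) and Flt1 (-0.82) fell and Egfl7 (0.73) rose in F-PRT, as log2 fold changes. In F-PRT the fibroblast marker Pdgfra (-1.34, 1 of 6), the mural marker Abcc9 (-0.81, 1 of 5) and the cardiomyocyte marker Ryr2 (-0.86) fell and the cardiomyocyte marker Myl3 rose (0.47), these being 2 of 7. The sums of endothelial markers were 353 to 515 CPM (NR), 250.3 to 358 CPM (S-PRT) and 248 to 431 CPM (F-PRT), and none of these markers was at 0 in any library. S-PRT replicates 3 and 4 were also above replicates 1 and 2 in endothelial, fibroblast and mural sums, and below them in cardiomyocyte sums. Within F-PRT, replicate 3 was also lowest for endothelial (248 CPM) and fibroblast (258 CPM) sums, but not for mural or cardiomyocyte sums. The part of these cell type markers in the results for the 10 genes was not tested. The marker calls come from the edgeR fit above alone and were not repeated without the length trend. The part of that trend in the marker calls was not tested. In bulk tissue, fewer cells of a type and less RNA per cell cannot be told apart.

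**Figure D2:**
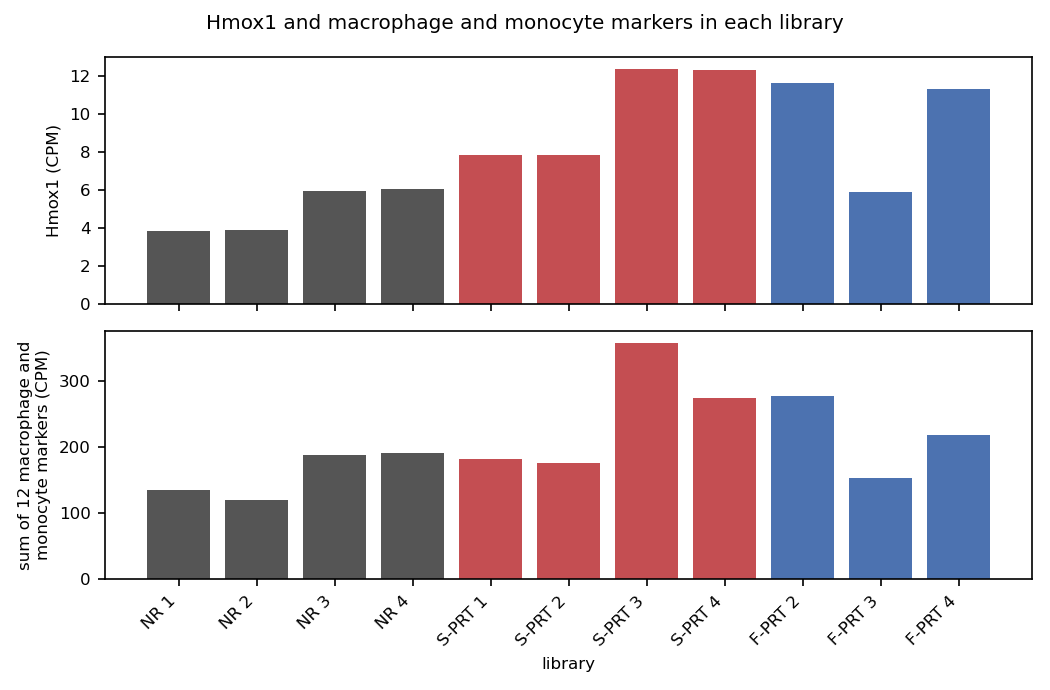
Hmox1 (upper panel) and the sum of 12 macrophage and monocyte markers (lower panel) as bars per library, both in TMM-scaled CPM on linear axes starting at 0. In F-PRT, replicate 3 is lowest in both panels (5.89 CPM for Hmox1 and 152 CPM for the markers), and S-PRT replicates 3 and 4 are above replicates 1 and 2 in both. The same holds for the sums of endothelial and of fibroblast markers, which are not drawn.

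Nqo1 encodes a quinone reductase and is widely used as a readout of NRF2. Its CPM ranged from 30.9 to 36.9 (NR), from 24.9 to 42.3 (S-PRT) and from 35.1 to 42.1 (F-PRT). The S-PRT libraries spread on both sides of the NR range. The log2 fold changes were -0.01 ± 0.14 in S-PRT versus NR (95% interval -0.30 to 0.29, adjusted p = 0.991) and 0.18 ± 0.15 in F-PRT versus NR (interval -0.15 to 0.50, adjusted p = 0.418). An increase as large as that of Hmox1 lies outside both intervals.

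Gclc and Gclm encode the catalytic and the modifier subunit of glutamate-cysteine ligase, the rate-limiting enzyme of glutathione synthesis. Gclc was at 8.46 ± 0.308 CPM in NR (n = 4), 7.98 ± 1.05 CPM in S-PRT (n = 4) and 7.64 ± 0.652 CPM in F-PRT (n = 3). Gclm was at 19.5 ± 2.27, 20.6 ± 1.63 and 17.4 ± 1.07 CPM in the same order. The groups overlapped for Gclc in each comparison, and for Gclm in both comparisons with NR. The log2 fold changes against NR were -0.08 ± 0.11 and -0.15 ± 0.12 for Gclc and 0.08 ± 0.10 and -0.16 ± 0.11 for Gclm, S-PRT first, with adjusted p from 0.299 to 0.741.

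In F-PRT versus S-PRT, Gclm CPM did not overlap: it was 16.5 to 18.6 in F-PRT and 18.7 to 22.6 in S-PRT. The log2 fold change was -0.24 ± 0.11, with an unadjusted p of 0.0425 and an adjusted p of 0.301. The scale mattered for this gene. The deposited effective length of Gclm, an average over its isoforms, was 1691 to 1956 bases (NR), 1566 to 1696 (S-PRT) and 1263 to 1733 (F-PRT). In TPM, which divides by that length, Gclm was at 9.998 ± 1.54 (NR), 10.4 ± 2.78 (S-PRT) and 11.4 ± 4.09 (F-PRT), so its direction in both F-PRT comparisons turned positive. Its expected counts were whole in 5 of 11 libraries, so some reads were shared with another gene and the value is uncertain.

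Txnrd1 encodes the cytosolic thioredoxin reductase, a selenoprotein. It ran from 37.4 to 41.5 CPM (NR), 42.0 to 44.6 CPM (S-PRT) and 33.4 to 47.2 CPM (F-PRT). All S-PRT libraries were above all NR libraries, by a small margin, while the F-PRT libraries spanned both groups. The log2 fold changes were 0.12 ± 0.09 (adjusted p = 0.546) and 0.03 ± 0.10 (adjusted p = 0.833). Both turned negative in TPM (-0.14 and -0.08 on the log2(TPM + 1) scale), and the first was also negative when counts were scaled by library size alone (-0.03).

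Gpx1 encodes the abundant cytosolic and mitochondrial glutathione peroxidase. It had 30.5, 26.7, 35.8 and 34.4 CPM in NR replicates 1 to 4. It had 46.6, 46.1, 58.9 and 48.1 CPM in S-PRT replicates 1 to 4, and 58.5, 47.7 and 63.0 CPM in F-PRT replicates 2 to 4. Every irradiated library was above every NR library. Across the 10 genes, CPM separated S-PRT from NR for 4 (Hmox1, Txnrd1, Gpx1 and Mt1, all higher; 14% of all tested genes were separated) and F-PRT from NR for 3 (Gpx1, Gpx4 and Mt1, all higher; 31.5% of all were, and 17.5% with F-PRT higher). Of all tested genes, 7.34% were separated with S-PRT higher. The F-PRT count is near its background. In TPM, which divides by each library's own length estimates and is not scaled by TMM, none of the 10 was separated in either comparison with NR (4.85% and 9.98% of all tested genes were). TMM-scaled CPM per kilobase uses the same lengths. On that scale Hmox1, Gpx1, Gpx4 and Mt1 kept the separations above, for example Gpx1 with up to 57.9 in NR and from 73.1 in irradiated libraries. Txnrd1 lost its own, with 13.8 to 15.3 in NR and 14.3 to 16.2 in S-PRT. The share of all tested genes separated on that scale was not counted.

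Gpx1 rose in S-PRT versus NR by 0.65 ± 0.12 on the log2 scale (adjusted p = 0.0266), a 1.57-fold change with a 95% interval of 1.31 to 1.88. It rose by 0.82 ± 0.13 in F-PRT versus NR (adjusted p = 0.00462), 1.77-fold with an interval of 1.46 to 2.14. The F-PRT call held without each of the 11 libraries in turn. The S-PRT call did not: it was lost without any of NR replicates 1 to 4 or without S-PRT replicate 3, with an adjusted p of up to 0.0835. F-PRT versus S-PRT gave 0.18 with an interval of -0.10 to 0.45, which includes no difference and does not show that the 2 modes act alike.

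Gpx4 encodes the peroxidase that reduces phospholipid hydroperoxides in membranes and restrains ferroptosis, a death by iron-dependent lipid oxidation. It had 340.0, 328, 342 and 328 CPM in NR replicates 1 to 4. It had 426, 426, 364 and 329 CPM in S-PRT replicates 1 to 4, and 446, 429 and 581 CPM in F-PRT replicates 2 to 4. The NR libraries were close together, S-PRT replicate 4 lay within them, and all F-PRT libraries were above all others. Gpx4 rose in F-PRT versus NR by 0.54 ± 0.12 on the log2 scale (adjusted p = 0.0146), 1.45-fold, and this held without each library in turn. S-PRT versus NR was 0.21 ± 0.11 (adjusted p = 0.359) in CPM and -0.03 on the log2(TPM + 1) scale.

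Of the 10 genes, Gpx4 had the smallest p in F-PRT versus S-PRT. The log2 fold change was 0.33 ± 0.12 (95% interval 0.06 to 0.59), with an unadjusted p of 0.0193 and an adjusted p of 0.246, so the difference did not pass. Between these groups CPM separated 2 of the 10 genes, Gpx4 higher and Gclm lower in F-PRT (10.6% of all tested genes were separated, 5.45% higher and 5.17% lower), and TPM separated only Gpx4 (4.64% of all, 3.74% higher). In TPM, Gpx4 was at 468 ± 6.40 in S-PRT (n = 4) and 706 ± 229 in F-PRT (n = 3). Its expected counts were whole in none of the 11 libraries, so its reads were partly shared with other sequences and the values are uncertain.

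Gpx3 encodes the secreted plasma glutathione peroxidase. It ranged over 71.7 to 108 CPM (NR), 89.3 to 135 CPM (S-PRT) and 88.6 to 111 CPM (F-PRT). The groups overlapped throughout. The log2 fold changes against NR were 0.25 ± 0.15 (S-PRT, adjusted p = 0.419) and 0.22 ± 0.17 (F-PRT, adjusted p = 0.365).

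Mt1 had 60.8, 55.0, 75.1 and 64.1 CPM in NR replicates 1 to 4. It had 84.9, 79.8, 106 and 87.8 CPM in S-PRT replicates 1 to 4, and 116, 77.5 and 109.8 CPM in F-PRT replicates 2 to 4. All irradiated libraries were above all NR libraries, with F-PRT replicate 3 closest to them. Mt1 rose in F-PRT versus NR by 0.66 ± 0.15 on the log2 scale (adjusted p = 0.013), 1.58-fold with an interval of 1.27 to 1.98, and the call held without each library in turn. S-PRT versus NR was 0.49 ± 0.14 with an adjusted p of 0.0969, which passed without F-PRT replicate 3 (adjusted p = 0.0411).

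Mt2, the neighbour of Mt1, varied more. It had 11.4, 7.66, 18.3 and 13.3 CPM in NR replicates 1 to 4. It had 17.6, 17.8, 32.8 and 20.3 CPM in S-PRT replicates 1 to 4, and 37.5, 16.7 and 24.3 CPM in F-PRT replicates 2 to 4. NR replicate 3 was above S-PRT replicates 1 and 2 and above F-PRT replicate 3, so the groups overlapped. Mt2 rose in F-PRT versus NR by 1.05 ± 0.31 on the log2 scale (adjusted p = 0.0346), 2.06-fold with an interval of 1.30 to 3.29. That call was lost without NR replicate 1, 2 or 4 or F-PRT replicate 2 or 4 (adjusted p up to 0.151). S-PRT versus NR was 0.80 ± 0.29 (adjusted p = 0.172). Expected counts of Mt2 were whole in 3 of 11 libraries, so its values carry some shared reads. The other counts were nearly whole, for example 282.99 in NR replicate 1 and 1064.98 in S-PRT replicate 3. The ratio of Mt1 to Mt2 TPM was 3.58 to 6.31 (NR), 2.83 to 4.27 (S-PRT) and 2.71 to 4.10 (F-PRT), with overlap between all groups.

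**Figure D3:**
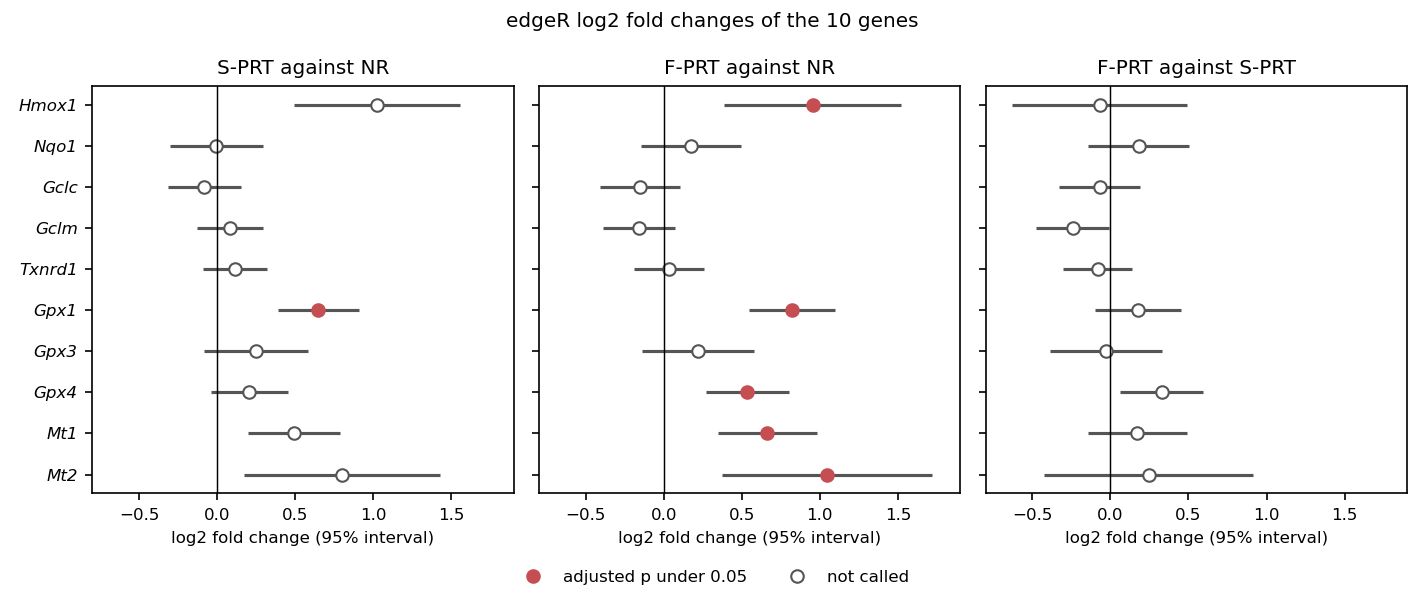
Log2 fold changes of the 10 genes from edgeR in the 3 comparisons, with 95% intervals as lines; filled points have an adjusted p under 0.05. The filled points are Gpx1 in S-PRT versus NR and Hmox1, Gpx1, Gpx4, Mt1 and Mt2 in F-PRT versus NR, and none is filled in F-PRT versus S-PRT.

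The titles number NR and S-PRT libraries alike, and deviations from the group means correlated between same-numbered libraries (r 0.184 to 0.363). Some differently numbered libraries correlated as much: S-PRT replicate 1 with NR replicate 2 had r = 0.443, and S-PRT replicate 4 with NR replicate 3 had r = 0.369, so the numbers are a weak guide to pairs. In a fit on these 8 libraries with the replicate number as a block, chosen after the data were seen, 4 of the 10 genes rose in S-PRT versus NR (9.74% of 14069 genes were called). These were Hmox1 (log2 fold change 1.03, adjusted p = 0.000493), Gpx1 (0.65, adjusted p = 0.00102), Mt1 (0.49, adjusted p = 0.0017) and Mt2 (0.81, adjusted p = 0.00252). The sizes were those of the unpaired fit, and the errors were smaller, 0.09 against 0.24 for Hmox1. A block over all 11 libraries, where F-PRT numbers did not pair with the rest, called 0 of the 10 in S-PRT versus NR (0.412% of all tested genes; 4 of 10 at an unadjusted p under 0.05) and gave Gpx1 an adjusted p of 0.0689. In F-PRT versus NR that block called 3 of 10 (10.3% of all tested genes) and lost Hmox1 (adjusted p = 0.0546) and Mt2 (adjusted p = 0.0768).

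Transcript length moved with these results. Mt2, Mt1, Gpx1 and Gpx4 have mean effective lengths of 290.1, 330.1, 623 and 663 bases, the shortest of the 10 genes, and 4 of the 5 genes that rose after F-PRT are these. Hmox1, at 1348 bases, is close in length to Nqo1 at 1332 bases and Gpx3 at 1373 bases, which were not called. When each library's trend of CPM on length was removed, 0 of the 10 genes were called in S-PRT versus NR (0.302% of all tested genes were) and 0 in F-PRT versus NR (3.5% were), with 2 and 3 at an unadjusted p under 0.05. In F-PRT versus NR the log2 fold changes became 0.75 for Hmox1 (adjusted p = 0.109), 0.44 for Gpx1 (0.0751), 0.16 for Gpx4 (0.225), 0.16 for Mt1 (0.613) and 0.52 for Mt2 (0.399), the values in parentheses being adjusted p. Other settings moved the counts too. The 10 genes held 0 calls in S-PRT versus NR and 0 in F-PRT versus NR with library size only (0.0962% and 0.921% of all genes were called) and with limma on log2(TPM + 1), which changes both the unit and the test (0.0137% and 0.488%). At an unadjusted p under 0.05 the former gave 2 and 5 and the latter 0 and 5. They held 1 and 5 with the size factors of DESeq2 (1.42% and 18.9%), 4 and 5 without a count filter (2.21% and 10.2%) and 2 and 5 with 1 surrogate variable (3.24% and 25.3%). In F-PRT versus S-PRT all of these gave 0 of 10, against 0%, 0.0618%, 0.0206%, 0.259% and 0.055% of all genes in the order named. With the paired fit and the length trend removed together, again chosen after the data were seen, Hmox1 (0.97, adjusted p = 0.000812), Gpx1 (0.45, adjusted p = 0.00635) and Mt2 (0.48, adjusted p = 0.029) were called in S-PRT versus NR (6.06% of genes) and Mt1 was not (0.18, adjusted p = 0.0975). Length differs between the groups' libraries in the way described above, and its part in the results was not tested further.

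**Figure D4:**
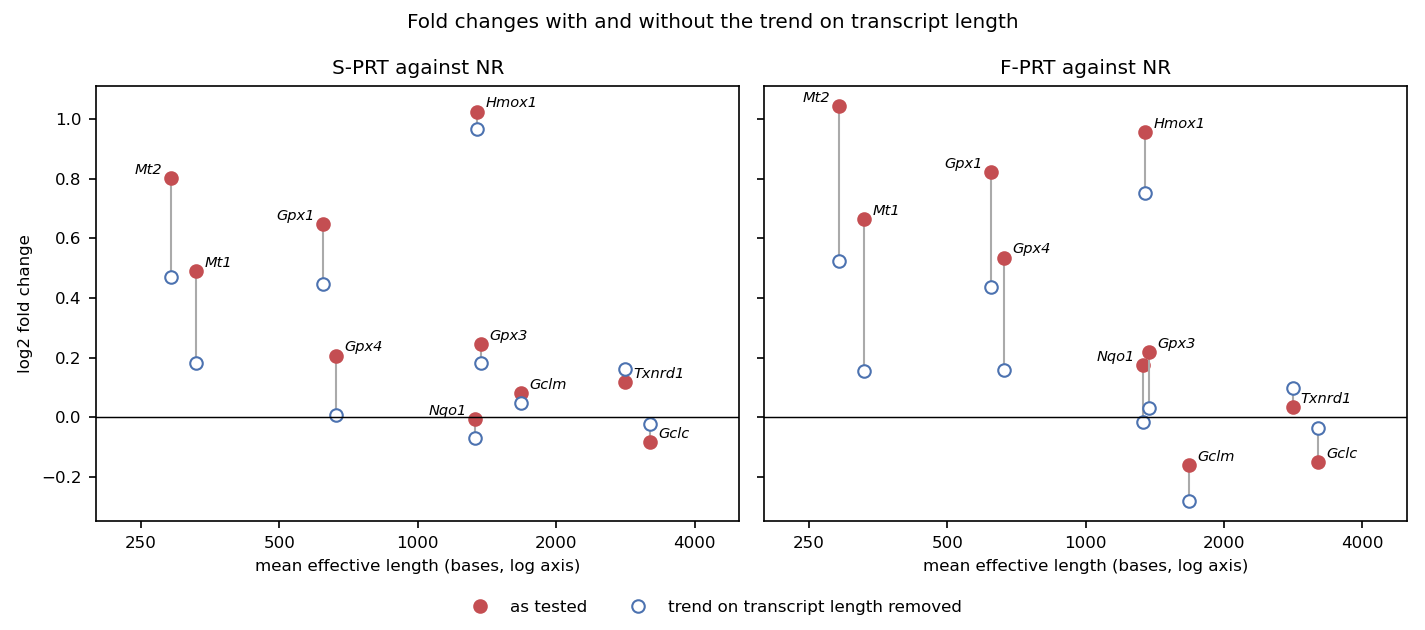
Log2 fold change of each of the 10 genes against its mean effective length in bases (log axis), before and after each library's length trend was removed. The short transcripts Mt2, Mt1, Gpx1 and Gpx4 move towards 0 when the trend is removed, in F-PRT versus NR from 1.05, 0.66, 0.82 and 0.54 to 0.52, 0.16, 0.44 and 0.16.

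Among the 10 genes, levels ran together most in a group of 4. Over the 11 libraries Pearson's r of log2 CPM was 0.966 for Gpx1 and Mt1, 0.960 for Mt1 and Mt2, 0.923 for Hmox1 and Mt1 and 0.909 for Hmox1 and Gpx1. With group means removed it was 0.923 for Gpx1 and Mt1 and 0.933 for Mt1 and Mt2. Gclc and Gpx4 ran opposite, with r = -0.655. These libraries share groups, length trend and depth, so the values are descriptions.

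The genes most like each member, by Pearson's r of log2 CPM over the 11 libraries among 10606 genes, are given as names only. For Hmox1 they were Bst2 (0.984), Isg15 (0.982) and Tyrobp (0.981), of which the first pair are interferon-stimulated genes and Tyrobp is a myeloid signalling adaptor. For Gpx1 they were Bax (0.980), Myl6 (0.969) and Clic1 (0.967). For Mt1 they were Clic1 (0.974), Cyb561 (0.971) and the ferritin light chain Ftl1 (0.967), and for Mt2 they were Mt1 (0.960), Arrb2 (0.959) and Oas1a (0.957). Gpx4 ran closest to Eif2s2 (0.993), Nfu1 (0.987) and Smim11 (0.987), and Gpx3 to Rexo4 (0.911), Cfp (0.903) and Folr2 (0.889). The remaining NRF2 targets had other nearest genes: Dusp3 (0.890), Robo4 (0.885) and Fam219a (0.878) for Nqo1, Ubqln2 (0.880), Txndc16 (0.876) and Pcdhga12 (0.867) for Gclc, Tex10 (0.831), Ankib1 (0.765) and Slco5a1 (0.764) for Gclm, and Cnksr1 (0.959), Naa60 (0.952) and Cdkl2 (0.943) for Txnrd1.

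Around the 5 NRF2 targets, 9 regulators of the pathway were tested, and in F-PRT versus NR 2 rose and 1 fell, while in S-PRT versus NR 0 were called (3 at an unadjusted p under 0.05; DESeq2 called 1). The small MAF gene Maff rose by 1.02 ± 0.19 on the log2 scale (adjusted p = 0.00864), from 3.71 ± 0.45 CPM in NR (n = 4) to 7.42 ± 1.83 CPM in F-PRT (n = 3), and Mafk rose by 0.33 ± 0.10 (adjusted p = 0.0399). Bach1, the repressor at the same elements, fell by 0.63 on the log2 scale (adjusted p = 0.00646), from 21.9 ± 1.23 to 14.2 ± 1.57 CPM. Bach1 is also the longest transcript of these, at 5608 bases, and without the length trend its change was -0.33 (adjusted p = 0.0608), while Maff kept 0.89 (adjusted p = 0.026). Against these counts, 10.8% of all tested genes were called higher and 8.67% lower in F-PRT versus NR, shares that apply to each list below, and 3.5% were called in either direction without the length trend. There the regulators had 2 called, Maff and Mafg, both higher. In S-PRT versus NR, 1.29% of all tested genes were called by edgeR and 4.79% by DESeq2, shares that also apply to each list below. At 1.29%, 0 calls in lists of 9 to 23 genes is near the background. Maff stood at 0.77 ± 0.18 on the log2 scale in S-PRT versus NR (adjusted p = 0.055). The genes of NRF2 itself (Nfe2l2), Keap1 and the metal sensor Mtf1, named after their values were seen, were not called in any comparison. Nfe2l2 was at 35.7 ± 2.03, 35.2 ± 5.61 and 37.5 ± 6.73 CPM in NR, S-PRT and F-PRT, and Keap1 at 52.5 ± 1.24, 50.9 ± 1.23 and 52.1 ± 1.31 CPM.

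Of 23 further NRF2 target genes tested, 5 rose and 1 fell in F-PRT versus NR, with a median log2 fold change of 0.26, and 0 were called in S-PRT versus NR (4 at an unadjusted p under 0.05; DESeq2 called 2), with a median of 0.13. Htatip2 (0.52 ± 0.09, adjusted p = 0.0069), thioredoxin Txn1 (0.56 ± 0.13, adjusted p = 0.0155) and Ftl1 (0.59 ± 0.17, adjusted p = 0.0303) rose. Idh1, which supplies NADPH, fell by 0.27 on the log2 scale (adjusted p = 0.0365). Without the length trend 0 of the 23 were called higher and 2 lower (Idh1 and Gstm1) in F-PRT versus NR, with a median of 0.04, and Txn1 and Ftl1 were at 0.22 and 0.23 (adjusted p = 0.162 and 0.427). In S-PRT the smallest p was that of the epoxide hydrolase Ephx1, at 0.68 ± 0.19 (adjusted p = 0.0959).

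Of the 15 other peroxide and superoxide enzymes tested, 6 rose and 1 fell in F-PRT versus NR, with a median of 0.34. The thiol enzymes Glrx5 (0.56 ± 0.14, adjusted p = 0.0196), Prdx4 (0.53 ± 0.13, adjusted p = 0.0196) and Prdx5 (0.48 ± 0.13, adjusted p = 0.0244) rose. Catalase, Cat, fell by 0.46 on the log2 scale (adjusted p = 0.0107), from 159 ± 1.46 to 116 ± 9.29 CPM. Without the length trend 0 of the 15 were called higher and 1, Cat, lower, with a median of 0.0045. In S-PRT versus NR 0 of the 15 were called (3 at an unadjusted p under 0.05; DESeq2 called 0), and Cat was at -0.24 ± 0.09 (adjusted p = 0.163). Among 14 glutathione enzymes, Ggct (0.40 ± 0.09, adjusted p = 0.0141) and the glutathione synthetase Gss (0.38 ± 0.12, adjusted p = 0.0419) rose in F-PRT versus NR, and 0 were called in S-PRT versus NR (2 at an unadjusted p under 0.05; DESeq2 called 0). Without the length trend 0 of the 14 were called in F-PRT versus NR, with a median of -0.08 in place of 0.23, and Ggct and Gss were at 0.06 and 0.24 (adjusted p = 0.725 and 0.186).

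Gpx1, Gpx3, Gpx4 and Txnrd1 are selenoproteins, and of 15 other selenoproteins and selenocysteine factors, Msrb1 rose in both comparisons. This methionine sulfoxide reductase was at 61.1 ± 3.47 CPM in NR, 91.0 ± 7.14 CPM in S-PRT (log2 fold change 0.58 ± 0.09, adjusted p = 0.0139) and 84.2 to 106 CPM in F-PRT (0.64 ± 0.10, adjusted p = 0.00456). Without the length trend it was called in S-PRT (0.39, adjusted p = 0.0429) and not in F-PRT (0.28, adjusted p = 0.0608). Its S-PRT call was lost with library size only (adjusted p = 0.33), on log2(TPM + 1) with limma (0.522) and with the replicate block over 11 libraries (0.0538), and its F-PRT call with the first pair of these (0.0662 and 0.226). Selenow (0.65 ± 0.12, adjusted p = 0.00809) and Pstk (0.43 ± 0.14, adjusted p = 0.0487) rose in F-PRT versus NR. Without the length trend 0 of the 15 were called there, with a median of 0.01 in place of 0.19.

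Genes tied to metal supply did not move in a single direction. Of 10 metal response and zinc transport genes, the importers Slc39a7 (0.38 ± 0.10, adjusted p = 0.0224) and Slc39a1 (0.29 ± 0.09, adjusted p = 0.0384) rose and Slc39a10 fell by 0.64 on the log2 scale (adjusted p = 0.02) in F-PRT versus NR, and 0 were called in S-PRT versus NR (1 at an unadjusted p under 0.05; DESeq2 called 0). Of 13 heme, iron and ferroptosis genes, 3 fell in F-PRT versus NR: the iron exporter Slc40a1 by 0.53 (adjusted p = 0.00887), the ferritin receptor Ncoa4 by 0.35 (adjusted p = 0.0116) and the lipid ligase Acsl4 by 0.44 (adjusted p = 0.0161). In S-PRT versus NR 0 of the 13 were called (3 at an unadjusted p under 0.05; DESeq2 called 1, Slc40a1). Of 10 glucocorticoid response genes, known to share inducers with the metallothioneins, 0 were called in either comparison with NR (4 and 1 at an unadjusted p under 0.05; DESeq2 called 0). Cdkn1c had the smallest p in S-PRT versus NR (-1.50 ± 0.46, adjusted p = 0.117) and Pdk4 in F-PRT versus NR (-1.16 ± 0.52, adjusted p = 0.132). Of the 22 genes named from these lists as called in F-PRT versus NR, 5 were still called without the length trend: Maff, Slc40a1, Ncoa4, Idh1 and Cat. With library size only 0 of the 22 were, on log2(TPM + 1) with limma 0, and with the replicate block 14. In F-PRT versus S-PRT 0 genes of these 8 lists were called, with 1 to 4 per list at an unadjusted p under 0.05. As 0% of all tested genes were called there, this is not particular to the lists. DESeq2 called 1 (1.15% of all tested genes), Htatip2 (log2 fold change 0.35, adjusted p = 0.0489).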

How the data were processed

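RNA of 11 mouse heart apex libraries was analysed. Per the labels' protocols, RNA with an integrity number above 9 went into a poly(A) directional library kit. The submitters' processing notes name FastQC, cutadapt, STAR, RSEM and edgeR without versions, and the builds GRCm39 and mm10. The sources used here do not give a strand setting for the counting. The authors deposited expected counts, TPM and FPKM per gene and library, and lengths in bases averaged over isoforms, per the file headers. The deposited FPKM were not used. RSEM shares ambiguous reads, so a gene whose expected counts are not whole (tolerance 1e-09) has uncertain values. Of 55414 identifiers, 52081 matched a mouse name table.

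The expected counts were rounded, filtered with filterByExpr (minimum count 10, minimum total 15) and scaled with TMM. The quasi-likelihood test of edgeR 4.0.16 in R 4.3.3 was fitted to the 11 libraries together, leaving 8 residual degrees of freedom, and p-values were adjusted by Benjamini-Hochberg over 14556 genes. Log2 CPM used a prior count of 2. Groups and replicate numbers came from the titles. Members and gene lists were chosen with earlier results of these data known. Beside the members, up to 3 called genes per direction and list were named by smallest p, or the gene with the smallest p where none was called, and the 3 genes most like each member (mean log2 CPM 1 or higher). Same-numbered NR and S-PRT libraries had correlated deviations (r 0.184 to 0.363 in 4 pairs over 11107 genes), so by that criterion these numbers were taken to pair, although 3 differently numbered pairs reached 0.354 to 0.443. The pairing comes from titles and data, since the labels do not say what a number stands for. F-PRT numbers did not pair (-0.446 to 0.233 with NR). Alternatives were DESeq2 1.42.0 and its size factors, library size only, no count filter, limma 3.58.1 on log2(TPM + 1), removal of each library's length trend, a replicate block, CPM per kilobase in place of TPM, 1 surrogate variable from sva 3.50.0, and leaving out each library. The fits were also run on simulated counts. Those held no trend on transcript length, so they do not bear on the calls that depended on it.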

Additional observations from a re-analysis of the deposited data

Results flagged for a closer look

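Gpx1 in S-PRT replicate 3 was at 58.9 CPM, apart from the other 3 S-PRT libraries at 46.1 to 48.1 CPM. The gap took up 0.839 of the range of the group. It was the only group of 4 libraries, among 20 looked at, with a library so far from the rest, and chance alone marks about 1 in 20 such groups. Leaving this library out ended the call of Gpx1 in S-PRT against NR, but so did leaving out any of NR replicates 1 to 4.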

How the results depend on the processing

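The calls of the 10 genes depended on the processing. In S-PRT against NR 188 genes were called, 127 higher and 61 lower, of which 1 was among the 10. The counts of all genes and of the 10 were 14 (11 higher, 3 lower) and 0 with library size only, 605 and 4 without a count filter, 697 and 3 with DESeq2, 2 and 0 on log2(TPM + 1), 44 and 0 without the length trend, and 471 and 2 with a surrogate variable. With the replicate block they were 60 and 0 over 11 libraries, and, chosen after seeing the data, 1371 and 4 on NR and S-PRT alone and 853 and 3 with the length trend removed as well. In F-PRT against NR (2841 and 5) they were 134 and 0, 71 and 0, 509 and 0 and 1501 and 3 with library size only, log2(TPM + 1), no length trend and the replicate block. In F-PRT against S-PRT (0 and 0) the all-gene count was 3 with size factors of DESeq2, 71 without a filter, 168 with DESeq2, 9 on log2(TPM + 1) and 8 with a surrogate variable, and the count of the 10 was 0 in all of these. Leaving out each library gave 26 to 444 genes and 0 to 3 of the 10, 1382 to 3784 and 3 to 5, and 0 to 103 and 0 to 0 in the 3 comparisons; 103 was without F-PRT replicate 3. Library size only moved the median of all genes to -0.14 in S-PRT against NR and 0.19 in F-PRT against S-PRT, and log2(TPM + 1) to -0.13 and 0.13.

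Directions turned only for values that were not called. With library size only these were Gclm -0.042 and Txnrd1 -0.025 in S-PRT against NR, and Hmox1 0.136, Gclc 0.099, Txnrd1 0.0892 and Gpx3 0.172 in F-PRT against S-PRT. On log2(TPM + 1) they were Txnrd1 -0.139, Gpx4 -0.0266 and Slc39a1 -0.0086 in S-PRT against NR, Gclm 0.122 and Txnrd1 -0.08 in F-PRT against NR, and Hmox1 0.0959, Gclc 0.092, Gclm 0.0882, Txnrd1 0.0587 and Gpx3 0.184 in F-PRT against S-PRT. Without the length trend they were Nqo1 -0.0156 in F-PRT against NR and Gpx1 -0.0093 and Mt1 -0.0258 in F-PRT against S-PRT, and with a surrogate variable Hmox1 0.0067 and Gpx3 0.0035 in the latter. Leaving out a library, Nqo1 ranged from -0.15 to 0.12 and Gclm from -0.0014 to 0.13 in S-PRT against NR, Txnrd1 from -0.0802 to 0.164 in F-PRT against NR, and Hmox1 from -0.22 to 0.16, Gclc from -0.15 to 0.0193, Txnrd1 from -0.198 to 0.0465, Gpx3 from -0.0994 to 0.0716 and Mt2 from -0.10 to 0.47 in F-PRT against S-PRT. Except for leaving out libraries, the cause was not tested. Hmox1 and Gclc rest on the fewest reads, from 96 and 151 counts in a library.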
